A study of Mus musculus with 39 samples.

Results

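Border-associated macrophages (BAM) were compared with microglia sorted from the same stage of mouse brain development, embryonic day E16.5. The comparison took every E16.5 library of the series and no other, chosen by the population and stage in the labels: 3 BAM libraries against 3 microglia libraries, 6 of the 39 libraries in the series. Both groups, and those of E14.5 and E18.5 used below, came from time-mated C57Bl/6 mice, with the day of the vaginal plug counted as E0.5, and both were isolated by fluorescence-activated sorting. No genotype difference, transgene or treatment is given for either group. The sort markers, the number of cells and whether embryos or litters were pooled are not given in the sources used here, so a difference in a gene that was sorted on would be the gate's own. Nothing states that the 3 libraries of a group came from separate litters. The p-values therefore measure only a spread between libraries, which may be technical. That spread was estimated within groups over all 39 libraries of the series. In bulk RNA, fewer cells of a type and less RNA per cell cannot be told apart.

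Microglia are the macrophages of the brain parenchyma, and BAM are those of its edges: the meninges, the perivascular spaces and the choroid plexus. Both descend largely from yolk sac progenitors and depend on the receptor Csf1r, but they settle in different surroundings. Microglia are known for receptors that sense nucleotides and for a dependence on TGF-beta and the factor Sall1. BAM are known for receptors that take up proteins, sugars and haem from fluid and blood, such as the mannose receptor CD206, and by late gestation both populations still divide.

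The measurement was paired-end sequencing of SMARTSeq v2 cDNA, which covers the length of polyadenylated transcripts, counted per gene. The 6 libraries held between 14995696 and 23841546 gene counts, and between 19840 and 21489 genes had at least 1 count. Of 53379 genes in the table, 22061 passed the filter on low counts and were tested. Values below are in CPM, a gene's count relative to the total of its library and further scaled between libraries, given in the order of replicates 1, 2 and 3. They are not corrected for transcript length, so levels are compared between libraries and not between genes. A log2 value is a difference, BAM minus microglia, with its standard error (SE), and a gene is called at an edgeR adjusted p under 0.05. The SE was worked out from the log2 value and the statistic of the edgeR test, so it adds nothing to that test.

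At E16.5, 3052 genes were called, which is 13.8% of those tested. BAM had 1564 genes higher, or 7.09%, and 1488 genes lower, or 6.74%. At least 2-fold differences made up 1637 of the calls, 759 of them higher and 878 lower in BAM. Without regard to any test, all 3 BAM libraries lay above all 3 microglia libraries for 3318 genes (15%) and below them for 3971 genes (18%). Over all tested genes the median log2 difference was -0.09, with quartiles at -0.80 and 0.42. These shares are the background for every gene group described here, since the groups were chosen with earlier results of these data known. They cover genes of every level, some without a count at E16.5, and were not matched to the level of a group. Where a group below has no call in a direction, edgeR placed no member of it there at an unadjusted p under 0.05 and DESeq2 called none, apart from 4 groups. The BAM core list had 1 member lower by both measures, cholesterol synthesis had 2 higher at the unadjusted p and 0 by DESeq2, granulocyte and mast cell markers had 2 and 1 higher, and lymphoid markers had 1 and 0 higher.

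**Figure D1:**
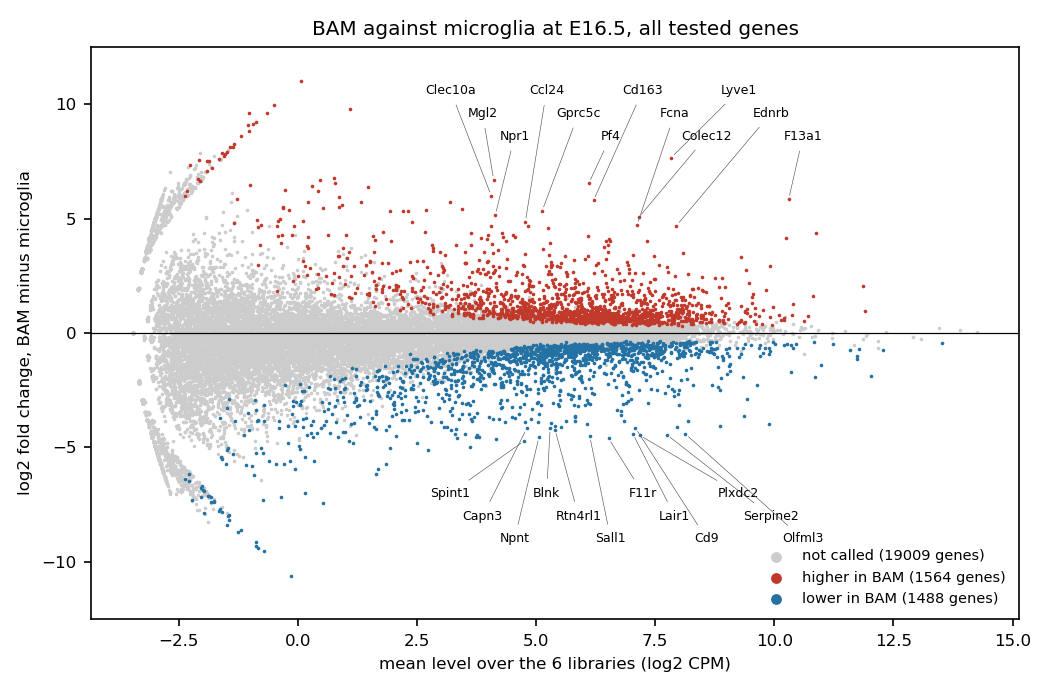
Each point is 1 of the 22061 tested genes, with mean log2 CPM over the 6 E16.5 libraries on the horizontal axis and the log2 difference, BAM minus microglia, on the vertical axis. Called genes are coloured by direction, and the calls lie on both sides of 0 at every level of expression, 1564 higher and 1488 lower in BAM.

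Libraries of a population resembled each other more than those of the other. Correlations of log2 CPM across 7703 genes, which are not independent replicates, ran from 0.963 to 0.980 within BAM, from 0.951 to 0.971 within microglia and from 0.747 to 0.827 between them. The main axis of variation held 71.1% of the variance among the 500 most variable genes and separated the populations, while the next set replicate 3 of each population apart from replicates 1 and 2. General macrophage genes were present in every library. The growth factor receptor gene Csf1r had 8025, 7111 and 8711 CPM in BAM and 9794, 9852 and 9042 CPM in microglia, and was not called (log2 -0.27 ± 0.12, edgeR adjusted p = 0.149). Adgre1 (F4/80), Aif1 (Iba1) and the lineage factor gene Spi1 (PU.1) were not called either. The integrin chain gene Itgam (CD11b) and Ptprc (CD45) were lower in BAM, by log2 -2.66 ± 0.20 and -0.79 ± 0.15.

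Most genes of the BAM core list stood higher in the libraries labelled BAM. Of 27 core BAM genes, all of them tested, 25 were higher, none lower and 2 not called, with a median log2 difference of 4.17. Their summed level was 42059, 43343 and 47501 CPM in the BAM libraries and 3418, 3495 and 4423 CPM in the microglia libraries. The list was chosen with earlier results of these data known and is no independent evidence of its own direction. Mrc1 encodes the mannose receptor CD206, which binds mannose-rich glycoproteins. It had 8252, 8541 and 8991 CPM in BAM and 318, 388 and 547 CPM in microglia, without overlap (log2 4.36 ± 0.35, edgeR adjusted p = 1.14e-11). The other members with the smallest p were uptake and signalling genes. Colec12, a scavenger receptor with a collectin head, had 734, 773 and 984 CPM in BAM and 19.1, 23.6 and 32.5 CPM in microglia (log2 5.05 ± 0.28, edgeR adjusted p = 2.79e-15). Dab2, the clathrin adaptor that loads receptors of the LDL family into coated pits, had 4676, 5148 and 5938 CPM in BAM and 223, 236 and 413 CPM in microglia (log2 4.17 ± 0.32, edgeR adjusted p = 6.4e-12). Every BAM library lay far above every microglia library for both genes. Igfbp4, which binds insulin-like growth factors, differed by log2 3.32 ± 0.23, and Ednrb, the endothelin B receptor, by 4.70 ± 0.33.

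The 12 largest differences in the BAM direction, among called genes with a mean log2 CPM of at least 4, held 10 members of that core list. Lyve1, a receptor for the matrix sugar hyaluronan at chr7:110850607-110863239 (GRCm38, gene span in the count table), led with 3321, 3611 and 4191 CPM in BAM and 12.4, 6.03 and 36.3 CPM in microglia (log2 7.66 ± 0.80, edgeR adjusted p = 3.75e-09). Microglia replicate 3 was the highest of its group for Lyve1, yet it lay far below every BAM library. Mgl2 and Clec10a, lectins for galactose and N-acetylgalactosamine, are neighbours at chr11:70130329-70137550 and chr11:70156197-70170834. Mgl2 had 191, 227 and 267 CPM in BAM and 0.11, 2.95 and 3.63 CPM in microglia (log2 6.69 ± 0.68, edgeR adjusted p = 2.42e-09), and Clec10a had 141, 151 and 151 CPM in BAM and 0.881, 1.35 and 4.69 CPM in microglia (log2 5.99 ± 0.68, edgeR adjusted p = 2.78e-08). These are close relatives, and reads may have been split between them. Pf4, a chemokine stored in platelets, had 779, 850.0 and 796 CPM in BAM and 2.37, 4.11 and 19.4 CPM in microglia (log2 6.54 ± 0.84, edgeR adjusted p = 2.73e-07). F13a1, the transglutaminase chain of coagulation factor XIII at chr13:36867178-37050244, had 9180.4, 9838 and 12507 CPM in BAM and 119, 87.8 and 341 CPM in microglia (log2 5.85 ± 0.50, edgeR adjusted p = 5.84e-11). Neither gene's groups overlapped.

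Cd163, the scavenger receptor for haptoglobin bound to haemoglobin, had 713, 721 and 661 CPM in BAM and 4.51, 3.34 and 29.8 CPM in microglia (log2 5.79 ± 0.85, edgeR adjusted p = 3.22e-06). Microglia replicate 3 again stood above the other microglia libraries. The remaining members of the 12 were Gprc5c, an orphan G protein-coupled receptor (log2 5.34 ± 0.51), Npr1, the natriuretic peptide receptor with a guanylyl cyclase domain (5.15 ± 0.52), Colec12 (5.05 ± 0.28), the eosinophil attractant Ccl24 (4.84 ± 0.55), the complement lectin Fcna (4.71 ± 0.45) and Ednrb (4.70 ± 0.33). None of the 12 lost its call when any of the 6 libraries was left out. Npr1 had 103, 101 and 107 CPM in BAM and 3.25, 2.89 and 2.62 CPM in microglia, so the receptor's groups were wide apart.

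Most genes of the microglia core list stood lower in the libraries labelled BAM. Of 25 core microglia genes, 20 were lower in BAM, none higher and 5 not called, with a median of -2.57. Their summed level was 8471, 7872 and 8437 CPM in the BAM libraries and 28244, 28225 and 29262 CPM in the microglia libraries. This list too was chosen with earlier results of these data known. Tmem119, a membrane protein of microglia, had 79.8, 53.7 and 48.8 CPM in BAM and 1009.6, 989.9 and 1145 CPM in microglia (log2 -4.11 ± 0.28, edgeR adjusted p = 2.99e-13). P2ry12, the receptor by which microglia steer their processes to released ADP, had 292, 229 and 242 CPM in BAM and 1841, 1775 and 1933 CPM in microglia (log2 -2.86 ± 0.21, edgeR adjusted p = 1.19e-12). No BAM library reached any microglia library for either gene. Siglech, a sialic acid-binding lectin, and Golm1, a Golgi membrane protein, differed by log2 -3.84 ± 0.28 and -3.05 ± 0.20. BAM replicate 1 was the highest of its group for several microglial genes, among them Olfml3 with 91.0, 57.9 and 39.3 CPM in BAM, against 1241, 1419.5 and 1322 CPM in microglia.

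The 12 largest differences in the microglial direction were led by Spint1, an inhibitor of membrane-bound serine proteases at chr2:119237362-119249527, with 7.50, 2.91 and 5.80 CPM in BAM and 135, 157 and 132 CPM in microglia (log2 -4.71 ± 0.45, edgeR adjusted p = 7.1e-10). F11r, the junctional adhesion molecule A, had 26.6, 20.5 and 10.64 CPM in BAM and 458, 430.3 and 509 CPM in microglia (log2 -4.60 ± 0.44, edgeR adjusted p = 5.95e-10). Npnt, a matrix ligand of integrins, had 12.7, 4.88 and 4.45 CPM in BAM and 179, 149 and 178 CPM in microglia (log2 -4.54 ± 0.56, edgeR adjusted p = 1.16e-07). All 3 genes were many times lower in each BAM library than in any microglia library. Sall1, the zinc finger factor that upholds microglial identity, lies at chr8:89027235-89044162 and had 24.3, 9.47 and 11.95 CPM in BAM and 367, 311 and 360.2 CPM in microglia (log2 -4.51 ± 0.73, edgeR adjusted p = 1.66e-05). BAM replicate 1 was the highest of its group for it and still far under every microglia library. Serpine2, a secreted inhibitor of thrombin and urokinase, had 71.4, 37.3 and 33.5 CPM in BAM and 959, 941 and 1178 CPM in microglia (log2 -4.44 ± 0.44, edgeR adjusted p = 1.4e-09). The others were the transmembrane protein Plxdc2 (log2 -4.47 ± 0.49), the secreted glycoprotein Olfml3 (-4.40 ± 0.35), the inhibitory collagen receptor Lair1 (-4.40 ± 0.29), the Nogo receptor relative Rtn4rl1 (-4.23 ± 0.38), the protease Capn3 (-4.16 ± 0.69), the signalling adaptor Blnk (-4.15 ± 0.41) and the tetraspanin Cd9 (-4.15 ± 0.33). None of these 12 lost its call when any library was left out.

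**Figure D2:**
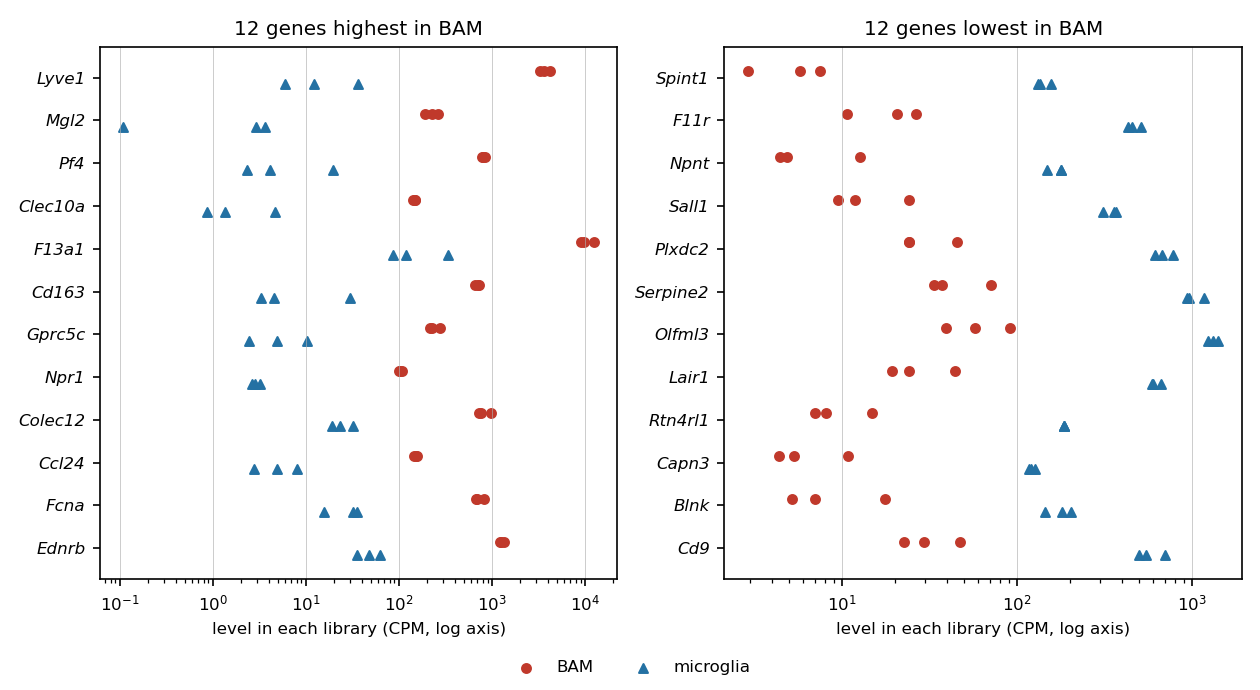
CPM on a log axis for the 12 genes with the largest difference in each direction, with a point for each of the 3 BAM and 3 microglia libraries at E16.5. For every gene the BAM and microglia points lie apart, from Lyve1 at log2 7.66 to Spint1 at -4.71, and microglia replicate 3 is the highest microglia library for Lyve1 and Cd163.

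The start regions of a BAM gene and a microglial gene are shown because PU.1, the factor that opens macrophage enhancers, acts in both populations. Its binding core was searched as GAGGAAG on both strands, in windows from 250 bases before to 50 after each start in RefSeq (GRCm38.p6). Capitals mark the matches as read on the gene's strand, where a match on the other strand shows as the complementary letters. The Mrc1 window is chr2:14229164-14229463, plus strand, and that of P2ry13 is chr3:59210833-59211132, minus strand.
Mrc1: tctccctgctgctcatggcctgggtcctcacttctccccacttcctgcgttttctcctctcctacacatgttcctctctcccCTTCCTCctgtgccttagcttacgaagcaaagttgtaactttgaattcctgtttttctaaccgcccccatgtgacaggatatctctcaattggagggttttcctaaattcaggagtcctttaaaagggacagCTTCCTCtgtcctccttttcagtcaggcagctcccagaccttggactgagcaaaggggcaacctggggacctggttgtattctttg
P2ry13: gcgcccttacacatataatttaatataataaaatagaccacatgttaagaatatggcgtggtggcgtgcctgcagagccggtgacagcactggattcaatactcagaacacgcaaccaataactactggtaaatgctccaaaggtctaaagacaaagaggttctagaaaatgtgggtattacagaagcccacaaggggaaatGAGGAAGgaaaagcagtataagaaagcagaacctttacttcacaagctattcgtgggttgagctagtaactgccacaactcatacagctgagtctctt
The motif stood in 8 of 24 windows of the BAM core list (33.3%) and in 5 of 21 of the microglia core list (23.8%), against 13.6% of all 32851 windows. Windows were given for 19 of the 27 and 16 of the 25 members, and a match is only a description of these letters. P2ry13, a relative of P2ry12 that also binds ADP, had 311, 298 and 359 CPM in BAM and 880.4, 858 and 859.8 CPM in microglia, with no overlap between the groups (log2 -1.42 ± 0.17, edgeR adjusted p = 1.01e-07).

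Receptors for uptake differed in both directions. Among 20 scavenger and endocytic receptors, 7 were higher and 5 lower in BAM and 8 were not called, with a median of 0.55. Msr1, the class A scavenger receptor for modified lipoproteins, had 367, 390.0 and 419.7 CPM in BAM and 21.7, 14.6 and 31.4 CPM in microglia (log2 4.12 ± 0.37, edgeR adjusted p = 1.43e-10). Stab1, a clearance receptor for altered self proteins, was abundant in both populations and had 8272, 7754 and 6886 CPM in BAM and 1746, 1845 and 1889 CPM in microglia (log2 2.06 ± 0.19, edgeR adjusted p = 3.33e-10). Lrp1, a large receptor for lipoproteins and protease complexes, ran the other way with 393, 355 and 262 CPM in BAM and 1461, 1330.3 and 1084 CPM in microglia (log2 -1.94 ± 0.17, edgeR adjusted p = 1.42e-10). The groups were apart for each of these receptors. Mrc1, Colec12, Lyve1, Cd163 and Stab1 belong to the BAM core list as well, so their direction adds nothing to it.

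C-type lectins, which recognise sugars on microbes and host cells, were more often higher than lower in BAM. Of 21 members 18 were tested, and 9 were higher, 2 lower and 7 not called, with a median of 1.67. Clec4a1 had 341, 351 and 369 CPM in BAM and 36.7, 38.4 and 49.1 CPM in microglia (log2 3.10 ± 0.30, edgeR adjusted p = 6.95e-10), and its relative Clec4a2, an inhibitory lectin, had 154, 161 and 202 CPM in BAM and 43.8, 57.1 and 44.1 CPM in microglia (log2 1.83 ± 0.26, edgeR adjusted p = 1.32e-06). No library of BAM overlapped with microglia for either, though these near copies may share reads. Cd209f, a mouse relative of DC-SIGN, had 29.9, 41.2 and 44.6 CPM in BAM and 2 counts in all over the 3 microglia libraries. Its relatives Cd209b and Cd209g had no microglial count and were at least 57.35-fold and 55.16-fold higher in BAM, taking 3 counts over the group as the floor. Low counts in the table were even more often than odd. With a floor of 6 counts, as for 3 read pairs with both mates counted, the bounds were 28.7-fold for Cd209b and 27.6-fold for Cd209g. Cd209b lost its call by DESeq2 (adjusted p = 0.118), and the bound of Cd209g was 27.5-fold without BAM replicate 3.

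The Ms4a genes encode membrane proteins that modulate immune receptors. Of 11 members 6 were higher in BAM, 2 lower and 3 not called, with a median of 2.54. Ms4a7, also a BAM core gene, had 287, 350.2 and 381 CPM in BAM and 11.01, 27.6 and 48.8 CPM in microglia (log2 3.54 ± 0.57, edgeR adjusted p = 1.49e-05). Ms4a4a differed by log2 2.96 ± 0.27, Ms4a6c by 2.54 ± 0.25, Ms4a6b by 1.81 ± 0.18 and Ms4a6d by 1.46 ± 0.21. Microglia replicate 3 was the highest of its group for Ms4a7, as for Lyve1 and Cd163.

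Fc receptors, which bind antibodies, differed in both directions. Of 9 members 4 were higher and 3 lower in BAM, with a median of 0.04. Fcgrt, the neonatal Fc receptor chain that recycles IgG and albumin, had 2411, 2495 and 3124 CPM in BAM and 294, 330.5 and 421 CPM in microglia (log2 2.94 ± 0.25, edgeR adjusted p = 5.84e-11). The inhibitory receptor Fcgr2b was higher by log2 2.499 ± 0.23. Fcrls, a microglial Fc receptor-like gene, was lower in BAM at -1.005 ± 0.12, as were the related Fcrl1 at -1.76 ± 0.31 and the activating receptor Fcgr4 at -1.30 ± 0.29. Fcrls was abundant in both, with 2415, 2253 and 2608 CPM in BAM and 4574, 5053 and 4973 CPM in microglia.

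**Figure D3:**
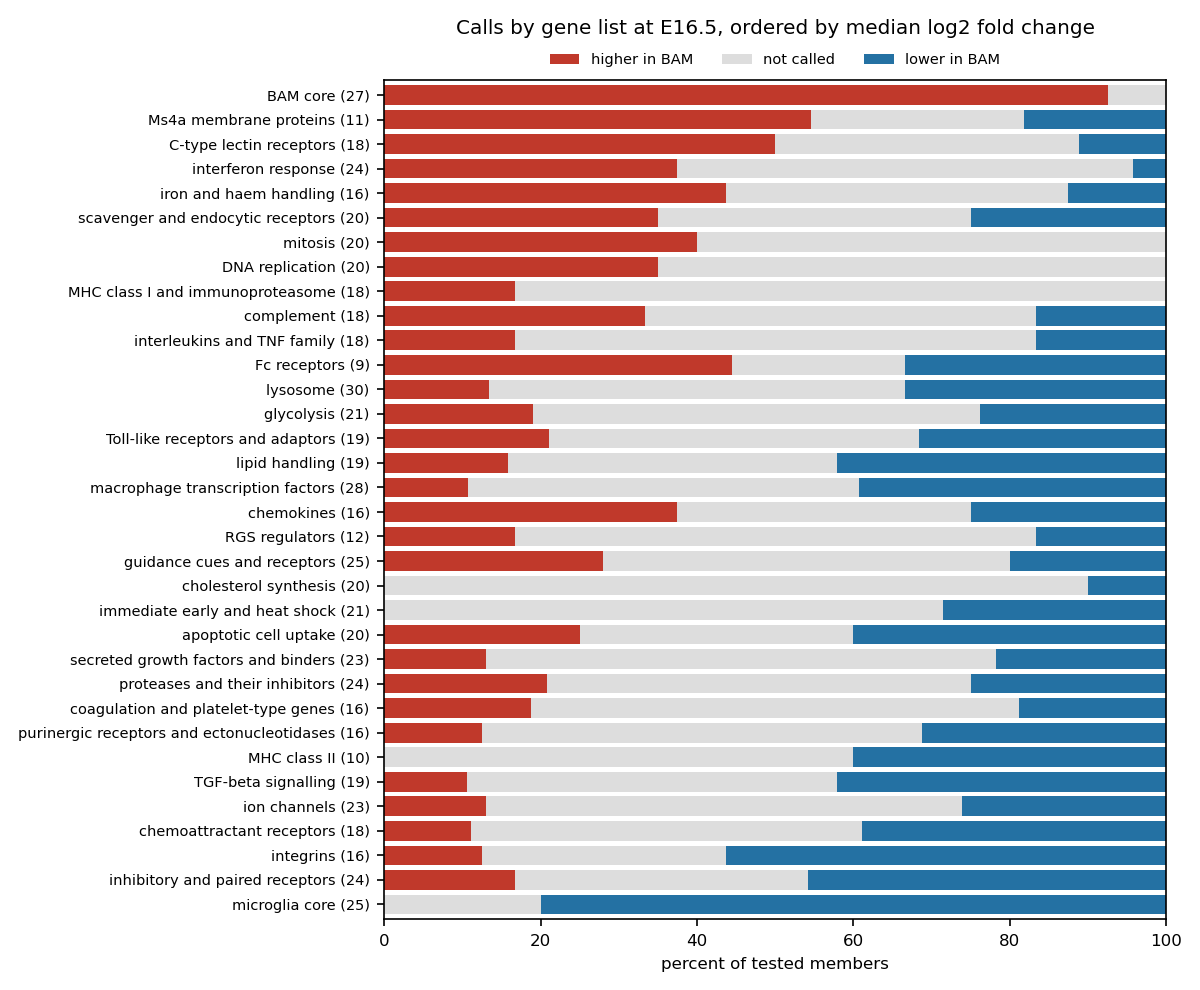
Each row is a gene list, its bar split by the percent of tested members higher, not called and lower in BAM. Rows are ordered by the list's median log2 difference, BAM minus microglia. The BAM core list is at the top with a median of 4.17 and the microglia core list at the bottom with -2.57. Most other lists hold called genes in both directions.

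Transcription factors were more often lower in BAM. Of 28 macrophage factors 11 were lower, 3 higher and 14 not called, with a median of -0.26. Etv1, an ETS family factor, had 152, 149 and 167 CPM in BAM and 36.3, 35.1 and 43.5 CPM in microglia (log2 2.02 ± 0.22, edgeR adjusted p = 6.72e-09). Tfec, a relative of the lysosomal regulator TFEB, had 86.0, 96.7 and 115 CPM in BAM and 33.96, 32.3 and 38.4 CPM in microglia (log2 1.51 ± 0.18, edgeR adjusted p = 3.95e-08). These BAM-high factors did not overlap between groups. Sall3, the relative of Sall1, had 6.01, 1.69 and 1.74 CPM in BAM and 88.0, 57.4 and 73.0 CPM in microglia (log2 -4.54 ± 0.63, edgeR adjusted p = 1.25e-06), close to absent in BAM. Irf8, needed for macrophage development in the brain, was lower by less, with 419, 389 and 449.7 CPM in BAM and 579, 618 and 802 CPM in microglia (log2 -0.67 ± 0.12, edgeR adjusted p = 4.98e-05). Runx3 was at 0 in every BAM library and at 2.59, 3.72 and 3.24 CPM in microglia, at least 66.32-fold lower in BAM, or 33.15-fold with a floor of 6 counts. It was chosen after its values were seen.

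TGF-beta is the cytokine on which microglia depend, and its signalling genes were lower in BAM in 8 of 19 tested cases, higher in 2 and not called in 9. The median was -0.84. The receptor kinase gene Tgfbr1 had 118, 104 and 48.1 CPM in BAM and 862, 874 and 622 CPM in microglia (log2 -3.13 ± 0.33, edgeR adjusted p = 4.38e-09). Itgb5, a chain of an integrin that binds the latent cytokine, had 98.1, 93.1 and 105 CPM in BAM and 546, 489 and 591 CPM in microglia (log2 -2.46 ± 0.22, edgeR adjusted p = 1.61e-10). Skil, a repressor that the pathway itself induces, had 10.7, 8.54 and 6.98 CPM in BAM and 152, 149.7 and 80.9 CPM in microglia (log2 -3.87 ± 0.30, edgeR adjusted p = 6.4e-12). For all 3 every BAM library was below every microglia library. The target Tgfbi, a matrix adhesion protein, went the other way with 705, 623 and 821 CPM in BAM and 126, 112 and 125 CPM in microglia (log2 2.57 ± 0.13, edgeR adjusted p = 6.18e-16), the smallest p of all genes tested. Nrros, which anchors latent TGF-beta on macrophages and microglia, was also higher in BAM, at 1057, 1066 and 1291 CPM in BAM and 482, 491 and 638 CPM in microglia (log2 1.08 ± 0.14, edgeR adjusted p = 2.59e-07). The ligand gene Tgfb1 had 13.7, 19.7 and 8.16 CPM in BAM and 21.5, 19.6 and 15.7 CPM in microglia and was not called (log2 -0.45 ± 0.37, edgeR adjusted p = 0.52). Tgfb1 was chosen after its values were seen.

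Of 23 tested growth factors and binders, 3 were higher, 5 lower and 15 not called, with a median of -0.58. Csf1, a ligand of Csf1r, had 19.8, 9.29 and 6.24 CPM in BAM and 238, 179 and 184 CPM in microglia (log2 -4.09 ± 0.37, edgeR adjusted p = 1.71e-10). Bmp2, a bone morphogenetic protein, had 87.7, 68.4 and 63.6 CPM in BAM and 0.826, 1.54 and 2.68 CPM in microglia (log2 5.44 ± 0.65, edgeR adjusted p = 6.21e-08). These opposite differences were both wider than any spread within a group. Spp1 (osteopontin) differed by log2 -2.38 ± 0.34 and the platelet-derived growth factor gene Pdgfb by -4.20 ± 0.65.

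Nucleotide and adenosine receptors were lower in BAM more often than higher: 5 lower, 2 higher and 9 not called of 16 tested, with a median of -0.72. Beside P2ry12 and P2ry13, Adora3, the adenosine A3 receptor, had 2.18, 2.58 and 1.31 CPM in BAM and 35.0, 38.1 and 30.8 CPM in microglia (log2 -4.10 ± 0.44, edgeR adjusted p = 6.75e-09). P2rx1, a channel opened by ATP, had 7.18, 11.4 and 4.62 CPM in BAM and 64.3, 62.7 and 51.6 CPM in microglia (log2 -2.94 ± 0.37, edgeR adjusted p = 1.64e-07). P2rx4, another ATP-gated channel, was higher in BAM with 351, 382 and 453 CPM in BAM and 155, 195 and 202 CPM in microglia (log2 1.10 ± 0.13, edgeR adjusted p = 7.04e-08). Again no group overlapped.

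Chemokine genes fell on both sides, 6 higher, 4 lower and 6 not called of 16 tested. The median was -0.26, and -0.41 when genes with no more than 3 counts in a group were set at their bound. The monocyte attractants Ccl7 and Ccl2 were higher in BAM. Ccl7 had 106, 76.8 and 82.2 CPM in BAM and 3.19, 5.07 and 4.63 CPM in microglia (log2 4.36 ± 0.43, edgeR adjusted p = 1.04e-09), and Ccl2 had 517, 224 and 222 CPM in BAM and 66.7, 51.8 and 38.8 CPM in microglia (log2 2.61 ± 0.43, edgeR adjusted p = 2.16e-05). Ccl24 had 146, 152 and 157 CPM in BAM and 2.81, 4.88 and 8.15 CPM in microglia (log2 4.84 ± 0.55, edgeR adjusted p = 2.12e-08). Ccl4, a macrophage inflammatory protein, was lower in BAM, at 34.5, 15.8 and 13.2 CPM in BAM and 214, 144 and 103 CPM in microglia (log2 -2.86 ± 0.48, edgeR adjusted p = 3.08e-05). Cxcl1 had 10.8, 1.69 and 0.872 CPM in BAM and no count in microglia, at least 71.0-fold higher, and was chosen after its values were seen. BAM replicate 1 held most of its counts: the bound was 21.8-fold without that library and 35.5-fold with a floor of 6 counts. Cxcl1 lost its call in turn without 4 of the 6 libraries, BAM replicate 1 and each microglia library. For the Ccl genes named here no BAM library overlapped with a microglia library.

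Receptors for such signals were more often lower in BAM, 7 of 18 against 2 higher and 9 not called, with a median of -1.02. Cx3cr1, the fractalkine receptor, had 2253, 2290.4 and 2389 CPM in BAM and 5314, 4770.3 and 5097 CPM in microglia (log2 -1.13 ± 0.14, edgeR adjusted p = 1.77e-07). Ccr1, a receptor for several Ccl chemokines, had 274, 251 and 243 CPM in BAM and 93.2, 91.4 and 94.3 CPM in microglia (log2 1.46 ± 0.14, edgeR adjusted p = 9.9e-10). The anaphylatoxin receptor C5ar1 was higher at log2 1.95 ± 0.23, and the sphingosine phosphate receptor S1pr1 was lower at -1.25 ± 0.17.

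Of 18 interleukin and TNF family genes, 3 were higher and 3 lower in BAM, with a median of 0.06. Tnfsf18 (GITR ligand) had 70.8, 51.9 and 74.3 CPM in BAM and 0.771, 1.67 and 1.34 CPM in microglia (log2 5.71 ± 0.56, edgeR adjusted p = 5.94e-09). Il1a, an alarm cytokine, had 6.43, 2.16 and 1.09 CPM in BAM and 66.8, 81.7 and 62.9 CPM in microglia (log2 -4.46 ± 0.67, edgeR adjusted p = 5.07e-06), and its receptor antagonist Il1rn had 2.82, 1.13 and 1.13 CPM in BAM and 14.6, 19.4 and 21.8 CPM in microglia (log2 -3.46 ± 0.82, edgeR adjusted p = 0.00247). Both IL-1 genes were lower in every BAM library than in any microglia library. Il15 and Il18, which act on lymphocytes, were higher at log2 1.48 ± 0.29 and 1.52 ± 0.32.

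Inhibitory and paired receptors, which set the threshold of immune activation, were lower in BAM in 11 of 24 cases, higher in 4 and not called in 9, with a median of -1.24. Lair1 had 44.4, 24.3 and 19.3 CPM in BAM and 662, 589 and 601 CPM in microglia (log2 -4.40 ± 0.29, edgeR adjusted p = 1.61e-13). Cd200r1, the receptor for the neuronal brake CD200, had 195, 189 and 219.7 CPM in BAM and 16.6, 19.5 and 28.6 CPM in microglia (log2 3.22 ± 0.26, edgeR adjusted p = 9.2e-12), the opposite direction. Vsir, the checkpoint VISTA, had 321, 249.6 and 269 CPM in BAM and 950.5, 1027 and 906 CPM in microglia (log2 -1.78 ± 0.14, edgeR adjusted p = 1.19e-11). All of these groups were apart. Trem2, a lipid-sensing receptor tied to microglial activation, differed by log2 -2.47 ± 0.23.

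Integrins, the adhesion receptors, were lower in BAM for 9 of 16 chains, higher for 2 and not called for 5, with a median of -1.13. Itgam had 37.0, 26.2 and 25.8 CPM in BAM and 175, 193 and 194 CPM in microglia (log2 -2.66 ± 0.20, edgeR adjusted p = 4.42e-12), and its partner chain Itgb2 had 107, 94.9 and 117 CPM in BAM and 295, 303 and 267 CPM in microglia (log2 -1.44 ± 0.16, edgeR adjusted p = 2.53e-08). Itga6, a laminin-binding chain, had 107, 108 and 87.8 CPM in BAM and 348, 325 and 344 CPM in microglia (log2 -1.75 ± 0.14, edgeR adjusted p = 6.42e-12). BAM were lower in every library for these chains and for the fibronectin-binding chain Itga5 (log2 -1.23 ± 0.16).

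Genes for the uptake of apoptotic cells were split, 5 higher, 8 lower and 7 not called of 20, with a median of -0.47. Gas6, the ligand that bridges dying cells to the receptors Axl and Mertk, had 3053, 2868 and 3571 CPM in BAM and 904, 982 and 1235 CPM in microglia (log2 1.61 ± 0.21, edgeR adjusted p = 2.8e-07). Axl itself had 55.7, 45.4 and 31.8 CPM in BAM and 245, 320.4 and 300.1 CPM in microglia (log2 -2.70 ± 0.41, edgeR adjusted p = 5.87e-06). The ligand was thus higher and this receptor lower in BAM, each without overlap. Cd36, which binds oxidised lipids and phosphatidylserine, had 369, 383 and 453 CPM in BAM and 10.46, 13.3 and 50.3 CPM in microglia (log2 4.02 ± 0.43, edgeR adjusted p = 6.09e-09). Havcr2 (TIM-3) had 17.1, 6.43 and 8.64 CPM in BAM and 184, 160.1 and 190.3 CPM in microglia (log2 -4.06 ± 0.39, edgeR adjusted p = 7.47e-10).

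Complement genes also split, 6 higher, 3 lower and 9 not called of 18, with a median of 0.08. Cfp, properdin, which stabilises the alternative pathway convertase, had 463, 395 and 469 CPM in BAM and 25.3, 40.7 and 57.5 CPM in microglia (log2 3.43 ± 0.35, edgeR adjusted p = 2.17e-09). C2, a component of the classical and lectin pathways, had 32.3, 29.3 and 37.8 CPM in BAM and 2.92, 5.78 and 3.35 CPM in microglia (log2 3.05 ± 0.42, edgeR adjusted p = 8.79e-07). Itgax, a chain of complement receptor 4, had 2.77, 0.188 and 1.05 CPM in BAM and 40.3, 47.1 and 49.1 CPM in microglia (log2 -5.11 ± 0.82, edgeR adjusted p = 1.5e-05). Cfp and C2 lay higher, and the receptor chains Itgam and Itgax lower, in all BAM libraries.

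Toll-like receptors and their adaptors were 4 higher, 6 lower and 9 not called of 19, with a median of -0.06. Cd180 and its partner Ly86 (MD-1), which modulate TLR4, were both lower in BAM. Ly86 had 293, 309 and 309.7 CPM in BAM and 819, 979.9 and 1045 CPM in microglia (log2 -1.64 ± 0.21, edgeR adjusted p = 2.18e-07), and Cd180 differed by log2 -1.87 ± 0.18. Tlr5, the flagellin receptor, had 89.1, 88.0 and 76.1 CPM in BAM and 6.38, 5.46 and 3.52 CPM in microglia (log2 4.04 ± 0.69, edgeR adjusted p = 4.21e-05). The RNA sensors went opposite ways, with Tlr8 higher at 2.43 ± 0.41 and Tlr3 lower at -2.01 ± 0.37.

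Of 25 guidance cues and receptors, 7 were higher, 5 lower and 13 not called, with a median of -0.28. Plxdc2 had 45.8, 24.2 and 24.2 CPM in BAM and 785, 679.6 and 617 CPM in microglia (log2 -4.47 ± 0.49, edgeR adjusted p = 1.22e-08). Nrp1, a receptor for class 3 semaphorins and VEGF, had 932, 880.1 and 1053 CPM in BAM and 408, 381 and 460.3 CPM in microglia (log2 1.20 ± 0.16, edgeR adjusted p = 7.32e-07). The semaphorin receptor Plxnd1 (log2 2.00 ± 0.23) and the ligand Sema4a (1.91 ± 0.22) were higher in BAM, and the ligand Sema4d (-2.28 ± 0.25) was lower.

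Regulators of G protein signalling gave 2 higher, 2 lower and 8 not called of 12. Rgs18, known from platelets and myeloid cells, had 36.2, 39.6 and 52.2 CPM in BAM and 0.771, 0 and 2.34 CPM in microglia (log2 5.32 ± 0.59, edgeR adjusted p = 1.59e-08), close to absent in microglia. Rgs14 was higher at log2 1.69 ± 0.28, while Rgs1 (-3.07 ± 0.52) and Rgs2 (-1.31 ± 0.22) were lower. Ion channels gave 3 higher, 6 lower and 14 not called of 23, with a median of -0.87. Kcnk13 (THIK-1), the potassium channel that sets the resting potential of microglia, had 21.5, 14.8 and 20.0 CPM in BAM and 95.2, 117 and 116 CPM in microglia (log2 -2.54 ± 0.26, edgeR adjusted p = 3.06e-09). Trpv4, a calcium channel sensitive to heat and stretch, had 109, 121 and 144 CPM in BAM and 19.6, 18.9 and 20.8 CPM in microglia (log2 2.66 ± 0.23, edgeR adjusted p = 8.52e-11). The proton channel Hvcn1 (log2 -1.51 ± 0.22), the lysosomal chloride exchanger Clcn7 (-0.87 ± 0.13) and the calcium channel chain Cacna1d (-2.34 ± 0.43) were lower in BAM.

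Proteases and their inhibitors gave 5 higher, 6 lower and 13 not called of 24, with a median of -0.65. Adam33, a membrane metalloprotease, had 148, 141 and 160.2 CPM in BAM and 3.14, 5.59 and 8.76 CPM in microglia (log2 4.68 ± 0.61, edgeR adjusted p = 4.13e-07). Plau, urokinase, had 76.7, 62.6 and 53.6 CPM in BAM and 12.9, 12.01 and 13.8 CPM in microglia (log2 2.32 ± 0.31, edgeR adjusted p = 7.53e-07). The protease was higher and its inhibitor Serpine2 lower in every BAM library, and the intracellular inhibitor Serpinb6a was higher at log2 2.96 ± 0.32. Coagulation genes gave 3 higher, 3 lower and 10 not called of 16, with a median of -0.71, or -0.45 with genes at the count floor set at their bound. Thbd, thrombomodulin, had 28.3, 35.4 and 35.9 CPM in BAM and 3.63, 4.49 and 3.80 CPM in microglia (log2 3.06 ± 0.57, edgeR adjusted p = 0.000135), and the matrix protein Thbs1 was lower at -3.15 ± 0.63.

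Class II molecules present peptides to helper T cells. Of 10 class II genes 4 were lower, none higher and 6 not called, with a median of -0.80. H2-DMa, a chain of the chaperone that loads peptides onto class II, had 9.79, 5.16 and 1.83 CPM in BAM and 70.6, 80.8 and 75.1 CPM in microglia (log2 -3.76 ± 0.51, edgeR adjusted p = 6.57e-07). Its partner H2-DMb1 had 11.97, 7.55 and 9.29 CPM in BAM and 37.8, 37.3 and 38.8 CPM in microglia (log2 -1.98 ± 0.34, edgeR adjusted p = 3.71e-05). H2-DMb2 and H2-Oa, a chain of the modulator of that chaperone, differed by log2 -2.84 ± 0.61 and -3.54 ± 0.98, and H2-Oa lost its call without BAM replicate 3. H2-Aa, the chain that presents the peptide, had 6.12, 2.63 and 5.67 CPM in BAM and 3.03, 0.128 and 0.558 CPM in microglia and was not called (log2 1.95 ± 1.25, edgeR adjusted p = 0.371). H2-Aa was chosen after its values were seen, and its groups overlapped.

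Of 18 class I and immunoproteasome genes, 3 were higher, none lower and 15 not called, with a median of 0.44. H2-D1, a classical class I chain, had 982, 859 and 1002 CPM in BAM and 432, 472 and 636 CPM in microglia (log2 0.88 ± 0.18, edgeR adjusted p = 0.000472). H2-K1 and H2-T22 stood at log2 0.60 ± 0.20 and 0.60 ± 0.21, and each lost its call in turn without 5 of the 6 libraries. The class I genes are near copies, and reads may have been split among them. No groups overlapped for H2-D1.

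Genes of the interferon response were higher in BAM in 9 of 24 cases, lower in 1 and not called in 14, with a median of 0.73. Their summed level was 915, 1037 and 807 CPM in the BAM libraries and 433, 483 and 468 CPM in the microglia libraries, so each BAM library stood above each microglia library. Ifi204, a DNA sensor, had 127, 126 and 108 CPM in BAM and 27.0, 44.0 and 33.4 CPM in microglia (log2 1.79 ± 0.24, edgeR adjusted p = 6.08e-07). Oas1a and Oas2, which make the messenger that activates RNase L, were both higher. Oas1a had 66.2, 59.9 and 59.4 CPM in BAM and 14.04, 13.7 and 17.4 CPM in microglia (log2 2.04 ± 0.30, edgeR adjusted p = 3.36e-06), and Oas2 had 91.4, 91.5 and 79.7 CPM in BAM and 18.9, 18.04 and 20.1 CPM in microglia (log2 2.20 ± 0.34, edgeR adjusted p = 7.76e-06). Rtp4 and the tether Bst2 differed by log2 1.93 ± 0.35 and 1.31 ± 0.27. The Oas1a start region, chr5:120907476-120907775, minus strand, is shown for the interferon-stimulated response element, searched as GAAANNGAA (N for any base) on both strands, with matches in capitals.
Oas1a: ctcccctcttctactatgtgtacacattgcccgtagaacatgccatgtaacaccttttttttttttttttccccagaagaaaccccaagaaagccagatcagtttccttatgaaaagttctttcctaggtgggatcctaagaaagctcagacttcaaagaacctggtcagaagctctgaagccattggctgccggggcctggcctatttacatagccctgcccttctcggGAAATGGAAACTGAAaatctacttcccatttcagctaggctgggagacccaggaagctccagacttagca
That motif stood in 11 of 21 windows of the interferon list (52.4%) and in 5 of 18 of the class I list (27.8%), against 8.56% of all windows. Of the interferon genes 17 of 24 had a window.

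Haem and iron handling leaned to BAM, with 7 of 16 genes higher, 2 lower and 7 not called and a median of 0.62. Blvrb and Blvra, which encode biliverdin reductases, were both higher. Blvrb had 261, 291 and 289 CPM in BAM and 24.9, 40.1 and 54.1 CPM in microglia (log2 2.82 ± 0.34, edgeR adjusted p = 6.63e-08), and Blvra had 258, 304 and 313 CPM in BAM and 44.6, 53.2 and 77.7 CPM in microglia (log2 2.32 ± 0.28, edgeR adjusted p = 8.19e-08). Slc48a1, which carries haem out of the lysosome, had 223, 238 and 252 CPM in BAM and 90.7, 103 and 139 CPM in microglia (log2 1.10 ± 0.13, edgeR adjusted p = 6.97e-08). Hmox1, a haem oxygenase, had 561, 497 and 719 CPM in BAM and 281, 333 and 589.9 CPM in microglia and was not called (log2 0.56 ± 0.24, edgeR adjusted p = 0.12). Hmox1 was chosen after its values were seen.

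Lysosomal genes were lower in BAM in 10 of 30 cases, higher in 4 and not called in 16, with a median of -0.04. Their summed level was 36202, 34814 and 39021 CPM in the BAM libraries and 52644, 58777 and 65028 CPM in the microglia libraries, so every BAM library lay below every microglia library. The aspartic protease Ctsd had 2222, 1972 and 2406 CPM in BAM and 7082, 7690.2 and 9610.3 CPM in microglia (log2 -1.89 ± 0.14, edgeR adjusted p = 2.91e-12). The cysteine protease Ctss, which trims the class II invariant chain, had 964, 910.1 and 972 CPM in BAM and 3302, 3695 and 3912 CPM in microglia (log2 -1.94 ± 0.22, edgeR adjusted p = 2.62e-08). Ctsl and Ctsz, further cysteine proteases, differed by log2 -1.70 ± 0.18 and -1.38 ± 0.16, all of them without overlap. The 4 members higher in BAM came to 1 without microglia replicate 1 or BAM replicate 3. The E-box TCACGTG of lysosomal promoters, searched on both strands, stood in 7 of 26 windows of the list (26.9%), against 3.77% of all windows.

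Lipid genes gave 3 higher, 8 lower and 8 not called of 19 tested, with a median of -0.17. Lpl, lipoprotein lipase, had 129, 152 and 139 CPM in BAM and 349, 382 and 358 CPM in microglia (log2 -1.37 ± 0.14, edgeR adjusted p = 1.85e-09). Pltp, which transfers phospholipids between lipoproteins, had 100.1, 85.4 and 108 CPM in BAM and 17.6, 16.499 and 14.3 CPM in microglia (log2 2.60 ± 0.27, edgeR adjusted p = 3.94e-09). The fatty acid binder Fabp5 was lower at log2 -2.19 ± 0.30. Cholesterol synthesis gave 2 lower, none higher and 18 not called of 20, the reductase Dhcr7 at -1.05 ± 0.20 and the desaturase Sc5d at -0.86 ± 0.28, and Sc5d lost its call in turn without 4 of the 6 libraries. The sterol element TCACNCCAC stood in 1 of 18 windows of these genes (5.56%), against 1.24% of all windows.

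Glycolysis genes differed in both directions. Of 21 tested identifiers 4 were higher, 5 lower and 12 not called. Hk2, the inducible hexokinase, had 146, 147 and 146 CPM in BAM and 295, 234 and 281 CPM in microglia (log2 -0.88 ± 0.18, edgeR adjusted p = 0.000489). Hk1, the constitutive form, had 48.9, 45.7 and 37.9 CPM in BAM and 29.0, 20.2 and 16.2 CPM in microglia (log2 1.02 ± 0.21, edgeR adjusted p = 0.000579), and Hk3 was higher at log2 0.58 ± 0.14. Hk2 was lower, and Hk1 and Hk3 higher, in every BAM library. Slc16a3 (MCT4), the lactate exporter, had 28.9, 21.5 and 19.7 CPM in BAM and 159.7, 145 and 162 CPM in microglia (log2 -2.73 ± 0.24, edgeR adjusted p = 9.36e-11), and Pfkfb3, which makes an activator of phosphofructokinase, was lower at -1.15 ± 0.18.

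Mitosis and replication genes that were called were all higher in BAM at E16.5, by small differences. Of 20 mitosis genes 8 were higher, none lower and 12 not called, with a median of 0.48. For 14 of the 20 all BAM libraries lay above all microglia libraries. Of 20 DNA replication genes 7 were higher, none lower and 13 not called, with a median of 0.45, and 15 had groups that did not overlap in this direction. The summed level of the mitosis genes was 1889.7, 1942 and 2128 CPM in the BAM libraries and 1631, 1423 and 1413 CPM in the microglia libraries. That of the replication genes was 2224, 2296 and 2437 CPM in the BAM libraries and 1653, 1571 and 1675 CPM in the microglia libraries. The count of called mitosis genes was 5 without microglia replicate 1, 5 without microglia replicate 2 and 4 without BAM replicate 3, and it was 16 when libraries of another number series, all from other stages, were left out of the fit. That of replication genes was 6 or 7 when any E16.5 library was left out.

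Among the mitotic genes Ccnb2, a B-type cyclin, had 94.6, 104 and 127 CPM in BAM and 59.6, 55.1 and 56.6 CPM in microglia (log2 0.92 ± 0.16, edgeR adjusted p = 4.4e-05). Its kinase Cdk1 had 149, 161 and 160.2 CPM in BAM and 84.0, 85.1 and 89.7 CPM in microglia (log2 0.86 ± 0.19, edgeR adjusted p = 0.000863). The cyclin Ccna2, active from S phase into mitosis, had 104, 107 and 119 CPM in BAM and 66.9, 67.2 and 69.1 CPM in microglia (log2 0.70 ± 0.14, edgeR adjusted p = 0.00046). The lowest BAM library was above the highest microglia library for each. Kif23, a kinesin of the cleavage furrow, and Ube2c, which feeds the anaphase-promoting complex, differed by log2 0.77 ± 0.20 and 0.69 ± 0.20, and Ube2c lost its call without microglia replicate 1 or BAM replicate 3. Of the replication genes Cdc6, which loads the helicase at origins, had 48.1, 48.6 and 49.8 CPM in BAM and 16.1, 20.1 and 21.0 CPM in microglia (log2 1.36 ± 0.20, edgeR adjusted p = 4.79e-06). Mcm6, a subunit of that helicase, had 317, 367 and 391.6 CPM in BAM and 177, 188 and 161 CPM in microglia (log2 1.03 ± 0.20, edgeR adjusted p = 0.000262), and its partner Mcm4 differed by 0.80 ± 0.18. Rrm1, which makes deoxynucleotides, and the DNA ligase Lig1 differed by 0.68 ± 0.16 and 0.77 ± 0.19, all without overlap.

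The start regions of Ccnb2, Cdk1 and Mcm6 are shown because cell cycle genes share short promoter elements. Capitals mark, for the cyclin and its kinase, the core TTTGAA of the cell cycle homology element and, for Mcm6, the E2F site TTTGGCG. Both strands were searched, and a match on the other strand shows as the complementary letters. The windows are chr9:70421505-70421804, minus strand for Ccnb2, chr10:69352863-69353162, minus strand for Cdk1 and chr1:128359656-128359955, minus strand for Mcm6, all GRCm38.p6 from RefSeq.
Ccnb2: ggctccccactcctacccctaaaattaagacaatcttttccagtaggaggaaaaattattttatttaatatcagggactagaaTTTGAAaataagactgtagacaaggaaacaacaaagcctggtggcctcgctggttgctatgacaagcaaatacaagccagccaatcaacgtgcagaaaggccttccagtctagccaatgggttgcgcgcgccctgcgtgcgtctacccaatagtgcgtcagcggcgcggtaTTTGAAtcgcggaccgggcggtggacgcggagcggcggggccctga
Cdk1: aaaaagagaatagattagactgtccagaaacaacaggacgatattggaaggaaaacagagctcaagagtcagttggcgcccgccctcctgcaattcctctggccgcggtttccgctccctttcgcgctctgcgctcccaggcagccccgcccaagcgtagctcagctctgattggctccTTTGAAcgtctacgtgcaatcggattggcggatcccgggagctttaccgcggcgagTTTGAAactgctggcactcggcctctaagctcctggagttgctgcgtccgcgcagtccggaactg
Mcm6: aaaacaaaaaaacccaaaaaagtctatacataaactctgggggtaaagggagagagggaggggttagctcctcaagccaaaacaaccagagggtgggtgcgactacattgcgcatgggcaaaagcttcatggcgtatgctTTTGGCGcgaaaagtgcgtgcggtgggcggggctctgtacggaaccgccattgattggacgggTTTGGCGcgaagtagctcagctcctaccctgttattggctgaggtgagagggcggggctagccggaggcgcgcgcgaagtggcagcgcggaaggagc
TTTGAA stood in 12 of 16 windows of the mitosis list (75%), against 17.9% of all windows. TTTGGCG stood in 6 of 20 windows of the replication list (30%), against 1.56% of all, and the alternative E2F letters TTTCGCG in 5 of 20 (25%), against 0.849%. Of each list 16 of 20 members had a window. Of the 12 mitosis members with TTTGAA, 6 were among the called ones.

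**Figure D4:**
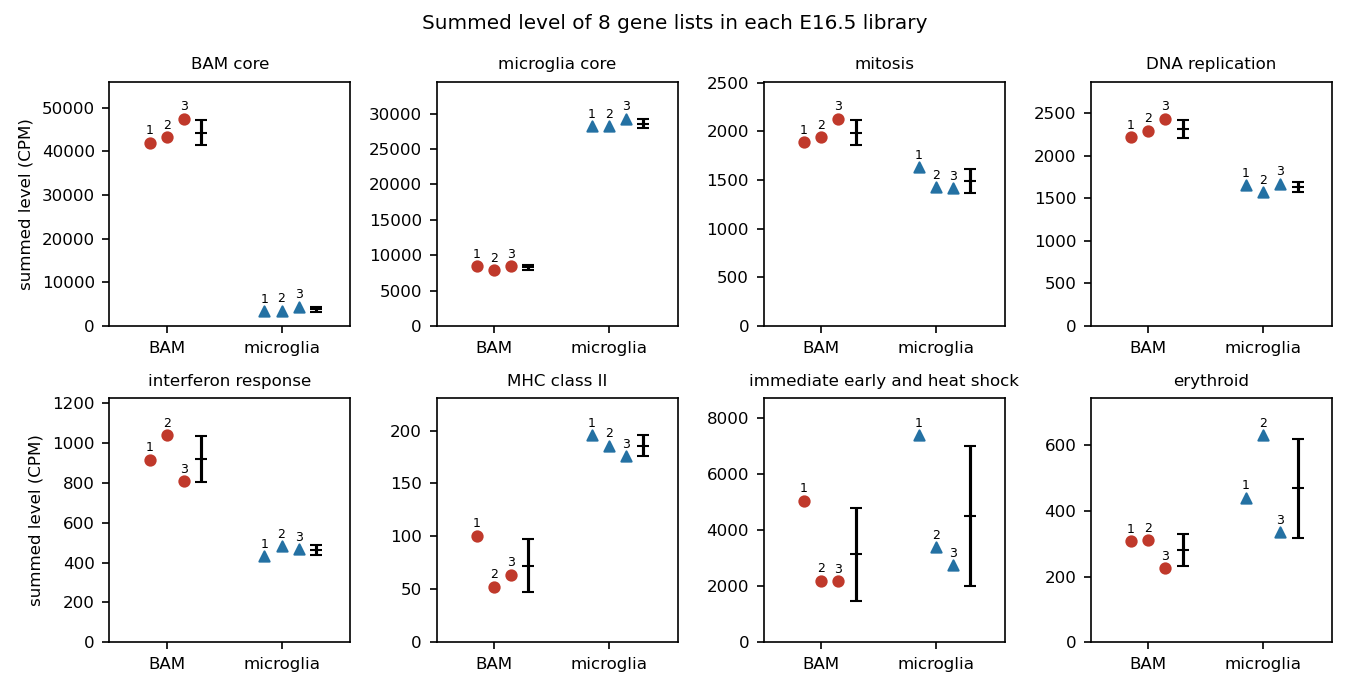
Summed CPM of the members of gene lists in each of the 3 BAM and 3 microglia libraries at E16.5. The mitosis and DNA replication sums of all BAM libraries lie above those of all microglia libraries, and the immediate early sum is high in replicate 1 of both populations.

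To ask whether this held at the next stage, the BAM minus microglia difference at E16.5 was tested against that at E18.5 (4 libraries of each population, 1 of them of another library series). Of all tested genes 44 were called, or 0.199%, with 42 differences above 0 and 2 below, and the median over all genes was -0.07. Mitosis genes made up 10 of them, all above 0, and replication genes 4, all above 0. The median mitosis gene stood at 0.48 at E16.5 and at -0.56 at E18.5, and the median replication gene at 0.45 at E16.5 and -0.23 at E18.5. The number of called genes depended on the libraries and the fit: it was 11 without BAM E16.5 replicate 3, 13 without microglia E16.5 replicate 2, 89 without BAM E18.5 replicate 1, 88 without microglia E18.5 replicate 2, and 3 when only the 4 groups compared entered the fit.

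Nek2, a kinase that splits the centrosome pair before mitosis, had the largest difference of differences among called genes with a mean log2 CPM of at least 4. At E16.5 it had 35.1, 32.2 and 36.7 CPM in BAM and 25.9, 26.3 and 21.4 CPM in microglia, and at E18.5 it had 31.8, 19.0, 22.5 and 27.3 CPM in BAM and 81.9, 43.3, 48.1 and 59.5 CPM in microglia. The groups did not overlap at either stage, with BAM above at E16.5 and below at E18.5. The log2 difference was 0.50 at E16.5, which was not called, and -1.21 ± 0.18 at E18.5 (difference 1.71 ± 0.28, edgeR adjusted p = 0.00366). Plk1, a central mitotic kinase, had 51.0, 56.0 and 87.1 CPM in BAM and 43.3, 37.5 and 46.0 CPM in microglia at E16.5, and 77.1, 47.5, 45.5 and 39.01 CPM in BAM and 109.9, 69.0, 78.1 and 93.7 CPM in microglia at E18.5 (difference 1.36 ± 0.25, adjusted p = 0.00788). Its groups were apart at E16.5 and overlapped at E18.5. Shcbp1, a protein of dividing cells, differed by 1.51 ± 0.32 and the nuclear pore protein Ndc1 by 1.42 ± 0.27. Plk1 and Ndc1 lost their calls without microglia replicate 2 or BAM replicate 3 of E16.5, and Nek2, Plk1, Shcbp1 and Ndc1 lost theirs with the 4 groups alone.

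Lpl kept its call in every alternative fit. Its E16.5 values are given above, and at E18.5 it had 85.8, 80.8, 73.3 and 80.2 CPM in BAM and 677, 510.4, 515 and 554 CPM in microglia. The log2 difference was -1.37 at E16.5 and -2.82 ± 0.13 at E18.5 (difference 1.45 ± 0.18, edgeR adjusted p = 5.97e-05), so the lipase was lower in BAM at both stages, and by less at E16.5. In the other direction stood Ahnak, a large scaffold protein, at -1.61 ± 0.36, and the zinc finger gene Zfp704 at -1.07 ± 0.23, each lost in several fits.

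**Figure D5:**
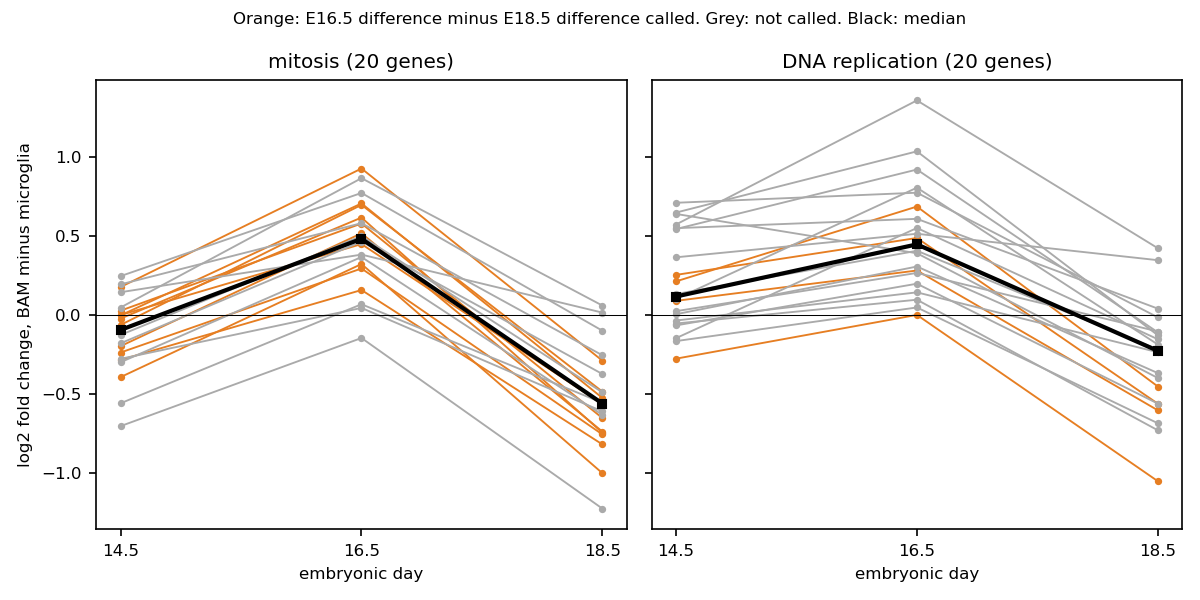
Log2 difference, BAM minus microglia, of each mitosis and DNA replication gene at E14.5, E16.5 and E18.5, with a line through the list's medians. The mitosis median lies at -0.10 at E14.5, 0.48 at E16.5 and -0.56 at E18.5, and the replication median at 0.12, 0.45 and -0.23.

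Set against E14.5 (3 BAM and 2 microglia libraries), 18 genes differed in their BAM minus microglia difference, or 0.0816% of those tested, 14 above 0 and 4 below. The median over all genes was -0.06. This test uses the same E16.5 libraries as that against E18.5, and both are given side by side only. None of the 20 mitosis and 20 replication genes was called by edgeR or by DESeq2. At an unadjusted p under 0.05, edgeR had 12 mitosis and 3 replication genes and DESeq2 12 and 4, all above 0. The median BAM minus microglia difference at E14.5 was -0.10 for mitosis and 0.12 for replication. Lmna, which encodes the nuclear lamins A and C, had 275, 307 and 371 CPM in BAM and 20.0, 27.5 and 23.3 CPM in microglia at E16.5, and 45.2, 31.6 and 39.9 CPM in BAM and 26.1 and 28.6 CPM in microglia at E14.5. The log2 difference was 3.75 at E16.5 and 0.51 ± 0.25 at E14.5 (difference 3.24 ± 0.34, edgeR adjusted p = 3.27e-07). Ighm, the constant region gene of immunoglobulin M, had 122, 95.3 and 86.6 CPM in BAM and 579.8, 623 and 729.5 CPM in microglia at E16.5, and 529, 542 and 473 CPM in BAM and 615 and 611 CPM in microglia at E14.5 (difference -2.42 ± 0.21, adjusted p = 9.92e-09). BAM were lower for Ighm at E16.5 by log2 -2.67 ± 0.15, against -0.25 ± 0.15 at E14.5.

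Trpm2, a calcium channel opened by ADP-ribose, had 141, 103 and 119.9 CPM in BAM and 52.8, 41.7 and 31.7 CPM in microglia at E16.5, and 7.25, 1.26 and 2.56 CPM in BAM and 15.8 and 17.4 CPM in microglia at E14.5 (difference 3.73 ± 0.63, edgeR adjusted p = 0.00391). It was higher in BAM at E16.5, a call lost without microglia E16.5 replicate 3, and lower in BAM at E14.5. The membrane protease Adam19 differed by 2.35 ± 0.37, the matrix protein Emilin2 by 1.72 ± 0.34 and the membrane glycoprotein Emb by 1.70 ± 0.33. Below 0 were Lpl at -0.97 ± 0.21, the oxidoreductase Pyroxd2 at -1.10 ± 0.21 and the costimulatory receptor Icos at -1.84 ± 0.37. Lmna, Ighm, Trpm2 and Adam19 kept their calls in every fit, and the others lost theirs in several.

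Immediate early and heat shock genes respond within minutes to stimulation, including the handling of cells. Of 21 tested 6 were lower in BAM, none higher and 15 not called, with a median of -0.34. Their summed level was 5049, 2198 and 2177 CPM in the BAM libraries and 7385, 3394 and 2742 CPM in the microglia libraries, so replicate 1 was the high library of both populations. Egr1 had 141, 70.6 and 69.2 CPM in BAM and 992, 432 and 278 CPM in microglia (log2 -2.60 ± 0.36, edgeR adjusted p = 9.72e-07), and Junb had 239, 107 and 119 CPM in BAM and 980.3, 482 and 402 CPM in microglia (log2 -2.004 ± 0.43, edgeR adjusted p = 0.000858). Atf3, a stress-induced factor, had 46.2, 12.52 and 11.3 CPM in BAM and 244, 111 and 92.9 CPM in microglia (log2 -2.69 ± 0.64, edgeR adjusted p = 0.00266). Egr3 and Nr4a1 stood at log2 -2.97 ± 0.93 and -2.29 ± 0.76, and each lost its call in turn without 4 of the 6 libraries. Egr3 was not called with the replicate block described below, which pairs libraries of adjacent number (log2 -2.39, adjusted p = 0.198). The 6 calls came to 3 without microglia replicate 1, BAM replicate 2 or BAM replicate 3. How far the replicate 1 libraries or the handling of cells bear on this group was not tested.

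Markers of other cells ranged widely in level, some of them at 0 in a whole group. Of 13 tested haematopoietic progenitor genes 2 were lower in BAM and 11 not called. Cd34, a sialomucin of progenitors, had 11.54, 8.02 and 9.99 CPM in BAM and 117, 99.1 and 125 CPM in microglia (log2 -3.53 ± 0.42, edgeR adjusted p = 6.37e-08), the blood factor Tal1 was lower at log2 -1.24 ± 0.32, and its partner Lmo2 had 131, 137 and 151 CPM in BAM and 69.2, 87.5 and 122.8 CPM in microglia and was not called. The erythroid factor Gata1 was not called, at 0 in the BAM libraries and with only 10 counts in all over the 3 microglia libraries. Of 11 monocyte markers 2 were lower and 9 not called, with sums of 119, 115 and 69.3 CPM in the BAM libraries and 117, 117 and 71.5 CPM in the microglia libraries. The monocyte chemokine receptor Ccr2 had 5.85, 2.63 and 2.49 CPM in BAM and 43.1, 20.0 and 24.2 CPM in microglia (log2 -3.00 ± 0.85, edgeR adjusted p = 0.0129), Plac8 stood at -2.29 ± 0.79, and both lost their calls when some libraries were left out. Fn1 (fibronectin) and the reductase Gsr were not called, with log2 0.62 ± 0.44 and 0.41 ± 0.35. No granulocyte or mast cell marker of 9 was called, and their sums were 15.6, 8.63 and 10.3 CPM in the BAM libraries and 16.513, 1.73 and 0 CPM in the microglia libraries. Of 4 lymphoid markers the cytokine receptor Il7r was the called one, at 0 in every BAM library and 9.47, 10.59 and 6.92 CPM in microglia, at least 187.6-fold lower in BAM, or 93.8-fold with a floor of 6 counts.

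Erythroid genes gave 1 higher and 1 lower of 11 (5 lower by DESeq2), with sums of 307, 310.1 and 226 CPM in the BAM libraries and 440.2, 629.5 and 334 CPM in the microglia libraries. Epor, the erythropoietin receptor, had 124, 98.7 and 124 CPM in BAM and 24.5, 38.0 and 39.2 CPM in microglia (log2 1.77 ± 0.32, edgeR adjusted p = 7.57e-05), and the globin Hba-a1, a near copy of Hba-a2, had 53.0, 65.4 and 31.5 CPM in BAM and 130.1, 194 and 94.0 CPM in microglia (log2 -1.48 ± 0.37, edgeR adjusted p = 0.00384). Platelet genes gave 1 higher and 1 lower of 9, with sums of 20.0, 15.9 and 11.8 CPM in the BAM libraries and 15.5, 10.1 and 9.27 CPM in the microglia libraries. Ppbp, a platelet chemokine gene, had 14.8, 12.9 and 9.595 CPM in BAM and 0, 0 and 0.335 CPM in microglia (log2 6.69 ± 1.09, edgeR adjusted p = 1.81e-05), and Treml1 was lower at -2.98 ± 0.88, a call lost without BAM replicate 1. Erythroid Hbb-bs, the adult beta globin, had 61.1, 74.5 and 35.1 CPM in BAM and 141, 208 and 103 CPM in microglia and was not called (log2 -1.41 ± 0.55, edgeR adjusted p = 0.0888). The glycoprotein genes of platelets, Gp1ba, Gp1bb, Gp6 and Gp9, were all below 3 CPM in every library. Endothelial markers gave 1 higher and 1 lower of 12, with sums of 135, 151 and 130.1 CPM in the BAM libraries and 185, 187 and 189 CPM in the microglia libraries, Egfl7 at 1.73 ± 0.35, Pecam1 at -1.26 ± 0.33, a call lost without BAM replicate 1, and the tight junction gene Cldn5, not called, at -0.61 ± 0.85.

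Neural and radial glia markers gave 1 higher and 1 lower of 15, with sums of 433, 465 and 299 CPM in the BAM libraries and 618, 615 and 347 CPM in the microglia libraries. Nes, an intermediate filament of neural progenitors, had 27.8, 19.7 and 16.8 CPM in BAM and 164.6, 143 and 124 CPM in microglia (log2 -2.75 ± 0.31, edgeR adjusted p = 2.31e-08), and Vim stood at 0.64 ± 0.20, a call lost in turn without 5 of the 6 libraries. The neuronal tubulin Tubb3 had 116, 142 and 76.9 CPM in BAM and 149, 143 and 76.1 CPM in microglia and was not called. No mesenchymal or mural marker of 12 was called by edgeR or DESeq2 or reached an unadjusted p under 0.05, and their sums were 270.3, 298 and 164 CPM in the BAM libraries and 303, 345 and 94.2 CPM in the microglia libraries, lowest in replicate 3 of both populations. Choroid plexus markers gave 1 higher and 1 lower of 11, with sums of 41.7, 72.9 and 43.9 CPM in the BAM libraries and 98.2, 83.6 and 140.0 CPM in the microglia libraries. The carrier gene Ttr had 4.41, 28.0 and 3.49 CPM in BAM and 61.5, 65.6 and 98.2 CPM in microglia, and the lysophospholipase Enpp2 had 31.3, 38.5 and 37.8 CPM in BAM and 16.8, 6.93 and 11.2 CPM in microglia. Ttr was called lower (log2 -2.65 ± 0.91) with an edgeR adjusted p of 0.0473. The call was lost by DESeq2 and in turn without 5 of the 6 libraries, but kept without BAM replicate 2, its high BAM library. Enpp2 was higher (log2 1.62 ± 0.40). Gata1, Plac8, Treml1 and the platelet glycoprotein genes were chosen after their values were seen. The part of these cells in the differences above was not tested.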

How the data were processed

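RNA was taken from sorted BAM and microglia. Per the labels' protocols, libraries were made from 2 ng of total RNA (median RIN 7.7) by SMARTSeq v2 and Nextera XT, which do not mark strand, with ERCC spike-in RNA and read in pairs of 151 cycles. The authors deposited 1 table of raw counts per gene, whole numbers that are not normalized. STAR, featureCounts and the build GRCm38 are named in the submitters' processing notes, with versions not given in the sources used here. Without strand, reads of a gene and of an overlapping or antisense gene cannot be told apart, and near-identical copies (Hba-a1 and Hba-a2, class I H2 genes, Clec4a and Cd209 relatives) may share reads. Reads carry no molecular identifiers, so floors cover counting error only. Even counts outnumbered odd ones among low values, so a fit on counts divided by 2, and bounds with a floor of 6 counts, were added after the data were seen, as were bounds without each library.

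Columns were matched to samples by the library number in the labels. Of 53379 identifiers 53274 had a symbol. Genes were filtered with filterByExpr, libraries scaled by TMM, and 12 groups (population by stage) fitted together over all 39 libraries (10692763 to 47182711 counts) with edgeR 4.0.16 (quasi-likelihood test, R 4.3.3), leaving 27 residual degrees of freedom. P-values were adjusted by Benjamini and Hochberg over all 22061 tested genes, and 0.05 was the threshold. Differences between stages were contrasts of the same fit. DESeq2 1.42.0 was an alternative. Figures were drawn with matplotlib 3.10.9. The procedure was tried on counts simulated from its own fitted model, which cannot show how it performs where that model does not hold.

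The members, gene lists and tests were chosen with earlier results of these data known. Named are the 12 highest and 12 lowest called genes with a mean log2 CPM of at least 4, the 5 members of each list with the smallest p, in the lists of other cells up to 3 by level, and in each contrast between stages the 5 highest and 5 lowest called. A few genes this rule would name are not reported here. The alternatives were another scaling, no filter, DESeq2, fewer libraries in the fit, a replicate block, a test against a 2-fold change and leaving out each library.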

Additional observations from a re-analysis of the deposited data

Results flagged for a closer look

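The difference between BAM and microglia at E16.5 departed from that at E18.5 for 7 named genes, by the contrast of the 2 differences in the fit over all libraries. Above 0 were Nek2 (1.71 ± 0.28), Shcbp1 (1.51 ± 0.32), Lpl (1.45 ± 0.18), Ndc1 (1.42 ± 0.27) and Plk1 (1.36 ± 0.25), all in log2 with SE. Below 0 were Zfp704 (-1.07 ± 0.23) and Ahnak (-1.61 ± 0.36). Of these, Nek2, Shcbp1 and Plk1 are genes of dividing cells.

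The E16.5 difference departed from that at E14.5 for 9 named genes. Above 0 were Trpm2 (3.73 ± 0.63), Lmna (3.24 ± 0.34), Adam19 (2.35 ± 0.37), Emilin2 (1.72 ± 0.34) and Emb (1.70 ± 0.33). Below 0 were Lpl (-0.97 ± 0.21), Pyroxd2 (-1.10 ± 0.21), Icos (-1.84 ± 0.37) and Ighm (-2.42 ± 0.21). Lpl thus appears against both stages, with opposite signs. Its log2 difference, BAM minus microglia, was -0.40 ± 0.15 at E14.5, -1.37 ± 0.14 at E16.5 and -2.82 ± 0.13 at E18.5. Both contrasts use the same E16.5 libraries.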

How the results depend on the processing

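No gene called at E16.5 or in either contrast between stages had the opposite sign in another fit that gave it a value. The E16.5 counts (3052 called, 1564 higher and 1488 lower in BAM) came to 4859, 2424 and 2435 with a replicate block and to 692, 334 and 358 in a test against a 2-fold change. DESeq2 called 3741, the 6 E16.5 libraries alone 3774, libraries of number series R8 3984 (2333 higher, 1651 lower), no filter 2748, other size factors 3068 and counts divided by 2, added after the data were seen, 3312. The share higher in BAM was 51.25% and ran over these fits from 48.01% by DESeq2 to 58.56% with R8 libraries. Leaving out a library gave 2226 to 2705 called, 1159 to 1433 higher and 1067 to 1281 lower. The replicate block paired libraries of adjacent number. Their deviations from the group means correlated at 0.359, 0.282 and 0.472, each library best with its own number. That is a hint from the data and not the design, as the labels state no pairing. The block called 2982 of the 3052 genes.

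Against E18.5 (44 called, 42 above 0, 2 below) there were 68, 64 and 4 with no filter, 151, 120 and 31 by DESeq2, 3, 3 and 0 with the 4 groups alone, and 51, 47 and 4 with libraries of number series R8 only. Leaving out a library gave 11 to 89, 11 to 87 and 0 to 3. Against E14.5 (18, 14 and 4) there were 26, 25 and 1 with no filter, 62, 44 and 18 by DESeq2, 41, 38 and 3 with R8 libraries only, and 19, 17 and 2 with the 4 groups alone. Leaving out a library gave 8 to 22, 7 to 21 and 1 to 4. The cause of these shifts was not tested beyond the fewer libraries in a fit. Of 301 named or listed genes called at E16.5, 2 to 13 lost the call under another scaling, filter, tool or choice of libraries, 27 to 33 when a library was left out, and 142 in the test against a 2-fold change. With 3 libraries a group, differences under 2-fold rest on few samples and genes of low count are the least certain.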

Other observations

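Several gene families outside the lists were looked at after their values were seen, and are described without a test, beside the 7.09% of all genes higher and 6.74% lower in BAM. Those shares were not matched to the level of a family. Annexins, which bind membranes in the presence of calcium, had 7 of 10 members higher in BAM and 1 lower, with a median of 1.13. Anxa2 had 361, 345 and 380.4 CPM in BAM and 98.2, 106 and 138 CPM in microglia (log2 1.67 ± 0.22), Anxa5 stood at 1.66 ± 0.22 and Anxa1 at 1.57 ± 0.41, while Anxa3 was lower at -1.02 ± 0.13. Subunits of the clathrin and vesicle adaptors AP-1 to AP-3 had 7 of 19 higher and none lower, with a median of 0.30. Ap2a2, a subunit of the adaptor at the plasma membrane, had 1074, 1038 and 1176 CPM in BAM and 217, 199.6 and 208 CPM in microglia (log2 2.40 ± 0.16), and Ap1b1, a subunit of the adaptor at the Golgi and endosomes, stood at 2.18 ± 0.13. Sorting nexins, which shape endosomal tubules, had 10 of 30 higher and 1 lower, with a median of 0.36, led by Snx2 at 2.77 ± 0.18 and Snx6 at 2.42 ± 0.21.

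Rab GTPases, the switches of vesicle traffic, had 16 of 59 higher and 2 lower, with a median of 0.30. Rab27a, which docks secretory lysosomes, had 10.1, 9.76 and 5.54 CPM in BAM and 90.5, 78.7 and 66.0 CPM in microglia (log2 -3.22 ± 0.31), so this Rab was among the lower ones. Tetraspanins, scaffolds of membrane domains, ran opposite to the annexins, with 10 of 27 lower in BAM and 1 higher and a median of -0.67. Cd81 had 377, 332 and 380.5 CPM in BAM and 1619.5, 1666 and 1957 CPM in microglia (log2 -2.27 ± 0.15), Cd37 stood at -2.05 ± 0.24 and Tspan32 at -3.08 ± 0.27. Of 82 cytosolic ribosomal protein genes none was higher and 1 lower, with a median of 0.17.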
